A study of Rattus norvegicus with 12 samples.

Results

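The chemokines Cxcl13, Cxcl14 and Cxcl16 were examined in rat L5 dorsal root ganglia (DRG) 3 days after local inflammation of the DRG (LID) or sham surgery. They were the 3 genes, of 7603 probesets that carry 1 gene symbol, whose symbol is Cxcl13, Cxcl14 or Cxcl16, and each had 1 probeset. Adult male Sprague Dawley rats gave 1 ganglion each, on 1 Affymetrix Rat Exon ST 1.0 array each, with 6 sham and 6 LID ganglia. In the LID rats, zymosan, which is made from yeast cell walls and triggers innate immune receptors, was placed over the L5 DRG (10 µl at 2 mg/ml, with Incomplete Freund's Adjuvant as its vehicle). The sham rats had the incision and the exposure of the foramen but no injection, so that zymosan, adjuvant and injection cannot be told apart. All values are log2 values relative to the median of the 12 arrays for that gene, and they carry no level of expression. Because of this, the labelled tissue could not be checked by the level of its markers, and levels of different genes could not be compared. The medians of the arrays over all probesets ran from -0.04 to 0.02, except for sham replicate 2 at 0.09. RNA of a whole ganglion was measured, in which more cells that make a transcript and more transcript per cell cannot be told apart.

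Chemokines are small secreted proteins that guide leukocytes through G protein coupled receptors. Cxcl13 attracts B cells and follicular helper T cells through the receptor Cxcr5, and is made by stromal and follicular dendritic cells of lymphoid follicles and, in inflamed tissue, by macrophages. Cxcl14 is made at rest by many epithelia and fibroblasts and attracts monocytes and dendritic cell precursors, and which receptor it uses is not settled. Cxcl16 is unusual in being a membrane protein of macrophages and dendritic cells. Held at the cell surface it takes up oxidized lipoprotein, and once cut off by metalloproteinases it attracts T and NKT cells that carry Cxcr6. None of the 3 acts through Cxcr3, the receptor of the interferon-induced ligands Cxcl9, Cxcl10 and Cxcl11.

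The promoters of the 3 genes are shown because the genes rose together, so that the sequence upstream of each can be set beside its values. Each is the 250 bases before the annotated start, 5′ to 3′ on the strand of the gene, from RefSeq on GRCr8, a later build than the rn4 of the array. Capitals mark matches, on either strand, to any of the motifs searched, which were the TATA box (TATAAA), AP-1 (TGANTCA), the interferon gamma-activated site or GAS (TTCNNNGAA), the interferon-stimulated response element or ISRE (GAAA, then NN, then GAAA), the E-box (CACGTG) and the NF-kB consensus.
Cxcl13 (chr14:13917921-13918170, minus strand): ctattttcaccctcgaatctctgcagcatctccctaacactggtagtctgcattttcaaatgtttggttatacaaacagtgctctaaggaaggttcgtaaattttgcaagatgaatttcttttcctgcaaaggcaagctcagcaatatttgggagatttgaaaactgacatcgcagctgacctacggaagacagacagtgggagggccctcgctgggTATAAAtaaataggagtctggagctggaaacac
Cxcl14 (chr17:8322900-8323149, plus strand): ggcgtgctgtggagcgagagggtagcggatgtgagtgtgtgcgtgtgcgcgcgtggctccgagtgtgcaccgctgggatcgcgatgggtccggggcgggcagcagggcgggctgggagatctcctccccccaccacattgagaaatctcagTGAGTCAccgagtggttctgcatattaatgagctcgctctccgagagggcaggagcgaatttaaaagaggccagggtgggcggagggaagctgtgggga
Cxcl16 (chr10:55669951-55670200, minus strand): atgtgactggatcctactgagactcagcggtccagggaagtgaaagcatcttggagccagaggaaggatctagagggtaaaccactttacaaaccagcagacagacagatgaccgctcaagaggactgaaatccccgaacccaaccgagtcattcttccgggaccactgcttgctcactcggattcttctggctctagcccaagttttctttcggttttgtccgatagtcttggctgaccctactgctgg

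The Cxcl13 promoter held a TATA box that begins 33 bases before the start, a motif present in 12.9% of 33469 RefSeq promoters of the same length. The Cxcl14 promoter held an AP-1 match that begins 99 bases before the start, where 6.34% of all promoters hold such a match. The Cxcl16 window held none of these letters. The 3 promoters also differed in base composition, with 43.6% G and C for Cxcl13, 63.2% for Cxcl14 and 51.6% for Cxcl16, against a median of 51.2%. Of all promoters, 7.67% held a GAS, 6.33% the NF-kB consensus, 3.41% an ISRE and 5.59% an E-box. These matches describe sequence only, and the arrays do not measure binding.

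All 3 chemokines were higher in LID than in sham ganglia. Cxcl13 rose 4.02-fold (95% confidence interval 2.91 to 5.55, n = 6 arrays per group), Cxcl14 rose 4.03-fold (2.18 to 7.44) and Cxcl16 rose 1.79-fold (1.52 to 2.10). By limma's moderated test with Benjamini-Hochberg adjustment over all 8260 probesets, the adjusted p was 6.01e-05 for Cxcl13, 0.00420 for Cxcl14 and 0.000245 for Cxcl16. Of all probesets, 7.66% were higher by the same test at an adjusted p of 0.05 (633 of 8260) and 11.7% were lower, 19.4% in all. Higher by over 1.5-fold and past the test, as the 3 chemokines were, were 2.14%. In the order of increases over all probesets, Cxcl14 had rank 9, Cxcl13 rank 10 and Cxcl16 rank 105.

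Cxcl13 was below its median over the 12 arrays in every sham ganglion and above it in every inflamed one. Its sham values, from replicate 1 to 6, were -0.78, -1.07, -0.37, -0.72, -0.36 and -0.98, and its LID values were 1.40, 1.55, 1.06, 0.36, 1.76 and 1.63. Every inflamed ganglion was above every sham ganglion, and LID replicate 4 lay apart from the other 5 inflamed ganglia on the low side. The means were -0.71 ± 0.30 (SD, n = 6) in sham and 1.29 ± 0.52 (SD, n = 6) in LID. In a two-sided exact permutation test over every assignment of the 12 arrays to 2 groups of 6, p was 0.00216, the smallest this design allows. In 3.62% of all probesets every LID value lay above every sham value, so the lack of overlap for Cxcl13 was shared by 299 probesets. Without LID replicate 4 the log2 difference was 2.19, against 2.01 with all arrays.

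Cxcl16 moved less, but its sham values were tight. They were -0.29, -0.33, -0.36, -0.54, -0.23 and -0.26 in sham replicates 1 to 6, and 0.48, 1.00, 0.42, 0.50, 0.38 and 0.23 in LID replicates 1 to 6. The groups did not overlap, and LID replicate 2 was well above the other inflamed ganglia. The means were -0.34 ± 0.11 (SD, n = 6) in sham and 0.50 ± 0.26 (SD, n = 6) in LID (exact permutation test, p = 0.00216). Without LID replicate 2 the log2 difference was 0.74 in place of 0.84, and the adjusted p from limma was 3.29e-05.

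Cxcl14 had the same mean change as Cxcl13 with a very different pattern across the ganglia. Its values were 0.34, -1.85, -2.80, -2.22, -1.41 and -1.58 in sham replicates 1 to 6, and 0.26, 0.40, 0.62, 1.01, 0.52 and -0.26 in LID replicates 1 to 6. Sham replicate 1 lay inside the LID range, above 2 of the 6 inflamed ganglia, whereas all 6 inflamed ganglia were above the other 5 sham ganglia. The means were -1.59 ± 1.07 (SD, n = 6) in sham and 0.42 ± 0.42 (SD, n = 6) in LID (exact permutation test, p = 0.00649). The SD over the sham arrays was the widest of all 8260 probesets, for which the median SD was 0.13. The corresponding ranks were 550 for Cxcl13 and 5059 for Cxcl16. Without sham replicate 1 the Cxcl14 difference was 5.27-fold (adjusted p = 9.66e-05 from limma), and the sham SD of 0.55 then had rank 37. The plot of values in each ganglion shows the 3 patterns side by side.

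**Figure D1:**
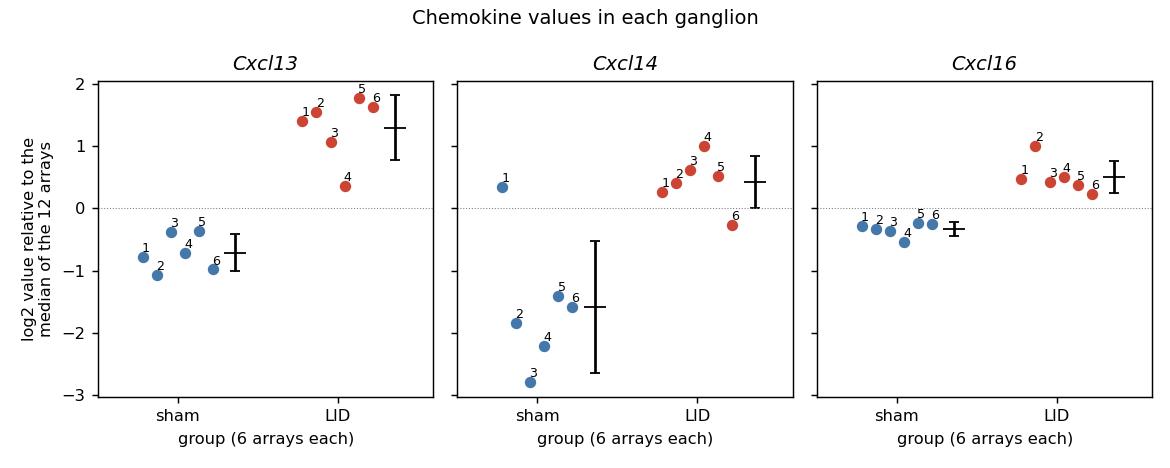
Log2 values of Cxcl13, Cxcl14 and Cxcl16 relative to the median of the 12 arrays (vertical axis) in the 6 sham and 6 LID arrays (points, numbered by replicate), with the mean and SD of each group as bars. Cxcl13 and Cxcl16 did not overlap between groups, while Cxcl14 in sham replicate 1 (0.34) lay among the LID values.

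In LID the order of spread was different. Cxcl13 had the widest LID spread of the 3 chemokines (SD 0.52, rank 54 of 8260), followed by Cxcl14 (0.42, rank 122) and Cxcl16 (0.26, rank 542), where the median over all probesets was 0.11. Over all 6 arrays of a group, Cxcl13 and Cxcl16 varied more in LID and Cxcl14 varied more in sham, which the plot of both SDs shows. For Cxcl13 and Cxcl16 this rested on 1 inflamed ganglion each. Without LID replicate 4, Cxcl13 ran from 1.06 to 1.76 in LID, no wider than -1.07 to -0.36 in sham. Without LID replicate 2, Cxcl16 ran from 0.23 to 0.50 in LID, no wider than -0.54 to -0.23 in sham. The difference in spread was not tested.

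**Figure D2:**
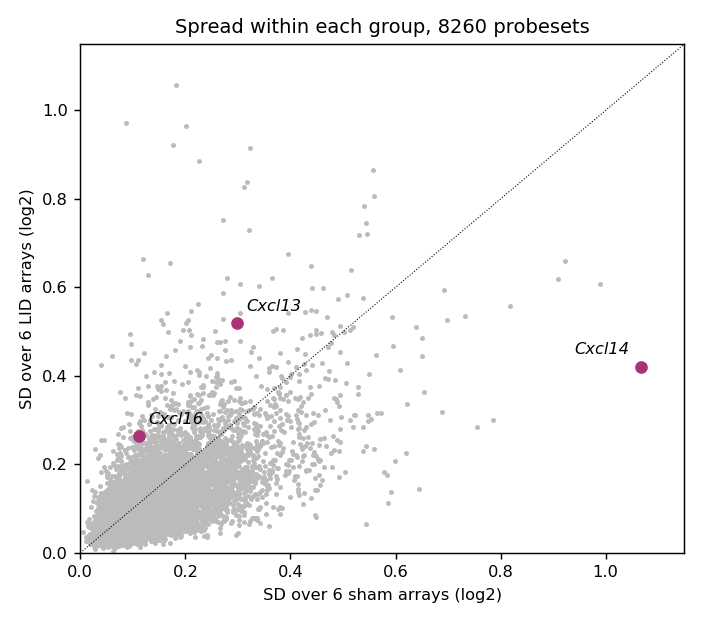
SD over the 6 sham arrays (horizontal axis, log2) against SD over the 6 LID arrays (vertical axis, log2) for 8260 probesets (grey), with the 3 chemokines marked and equal spread as a dotted line. Cxcl14 lies farthest to the right, at a sham SD of 1.07 and a LID SD of 0.42.

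The changes of the 3 genes were compared with each other by taking the difference of each pair within every array. The comparison holds for array values only, and the study describes fold changes on arrays as compressed. The study's qPCR, on partly different ganglia, gave the smallest rise for Cxcl13 and the largest for Cxcl14. On the array, Cxcl13 rose more than Cxcl16, by 1.17 on the log2 scale (95% interval 0.57 to 1.77 from inversion of the exact permutation test, n = 6 arrays per group). The exact permutation p was 0.00649, and 0.0195 after Benjamini-Hochberg adjustment over the 3 pairs. Cxcl14 exceeded Cxcl16 by 1.17 (0.14 to 2.05, exact permutation p = 0.0325, adjusted 0.0487). This second call was lost on leaving out any one of 11 of the 12 arrays, with adjusted p between 0.0519 and 0.0942, and was kept without sham replicate 1. Between Cxcl13 and Cxcl14 the difference was -0.00 with an interval of -1.31 to 1.34 (exact permutation p = 1), so a difference of more than 2-fold either way was not excluded by these arrays.

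Within each group the 3 chemokines did not rank the ganglia alike. Among the inflamed ganglia LID replicate 4 had the lowest Cxcl13 and the highest Cxcl14, and LID replicate 6 had the lowest Cxcl14 and Cxcl16 with a high Cxcl13. Over the 6 LID arrays, Pearson's r between Cxcl13 and Cxcl14 was -0.73 (exact permutation p = 0.125) and Spearman's rho was -0.60 (exact permutation p = 0.242). Without the 2 arrays farthest from the median in Cxcl13, r was 0.11, so the negative relation rested on those arrays. Cxcl14 and Cxcl16 had r = 0.44 (exact permutation p = 0.311) and rho = 0.77 (exact permutation p = 0.103) over the 6 sham arrays, and 0.97 without the 2 farthest arrays. In LID the same pair had r = 0.27 (exact permutation p = 0.525) and rho = 0.37 (exact permutation p = 0.497), and -0.32 without the 2 farthest. Cxcl13 and Cxcl16 had r = 0.03 in sham (exact permutation p = 0.969; rho = 0.09, p = 0.919; -0.62 without the 2 farthest). In LID they had r = -0.01 (exact permutation p = 0.993; rho = -0.54, p = 0.297; -0.31 without the 2 farthest). Cxcl13 and Cxcl14 in sham had r = -0.25 (exact permutation p = 0.688; rho = -0.09, p = 0.919; 0.24 without the 2 farthest). None of the 6 relations passed after Benjamini-Hochberg adjustment, where the lowest adjusted p was 0.75 for r and 0.594 for rho.

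The genes whose variation within the groups was most like that of each chemokine were found among the 7603 probesets with 1 symbol, by Pearson's r over the 12 arrays after each group mean was subtracted. These are the highest of many values and are given as a description. For Cxcl14 they were A2m, the acute-phase protease inhibitor of the rat (r = 0.91, rho = 0.85), Apobec1, the cytidine deaminase that edits apolipoprotein B mRNA (0.87, rho = 0.86), and Fn1, fibronectin (0.85, rho = 0.85). Without the 2 arrays farthest from the median, sham replicates 1 and 3, r was 0.86, 0.76 and 0.78. All 3 also rose in LID, A2m by 1.83 (log2, standard error 0.27), Apobec1 by 0.90 (0.18) and Fn1 by 1.03 (0.20).

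Sham replicate 1 was the highest sham array for each of these genes as it was for Cxcl14, which their choice by likeness to Cxcl14 over the same arrays favors, so it is no separate evidence about that ganglion. A2m was 0.043 there and at most -1.03 in the other 5 sham ganglia, Apobec1 was 0.11 against at most -0.36, and Fn1 was 0.11 against at most -0.27. The mean of 10 macrophage and monocyte markers was also highest in this sham ganglion, at -0.15, where the other 5 ran from -1.04 to -0.54 and the LID ganglia from 0.25 to 0.97. This was not particular to macrophage markers, since this ganglion had the highest sham mean in 7 of the 15 gene lists. Among them were the interferon gamma list (-0.19, others -0.41 to -0.36) and the list of lymphoid stroma (-0.07, others -0.33 to -0.16). Cxcl13 (-0.78) and Cxcl16 (-0.29) in this ganglion lay within the range of the other sham ganglia. What part these cells and genes have in the Cxcl14 value of this ganglion was not tested.

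**Figure D3:**
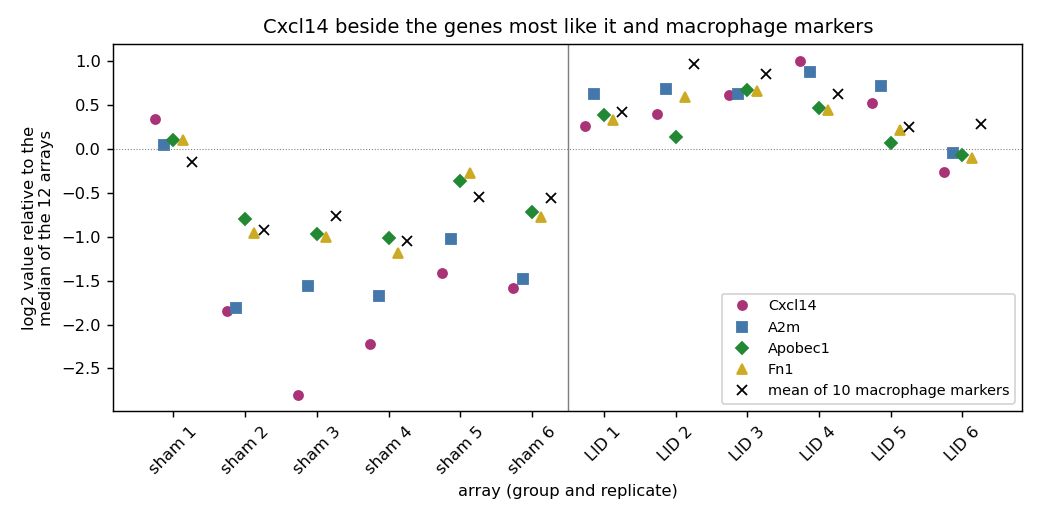
Log2 values relative to the median of the 12 arrays (vertical axis) in each array (horizontal axis) for Cxcl14, A2m, Apobec1, Fn1 and the mean of 10 macrophage markers. A2m, Apobec1 and Fn1 were chosen for their likeness to Cxcl14 over these arrays. Sham replicate 1 was the highest sham array in all 5 series, and LID replicate 6 was the lowest LID array for Cxcl14 (-0.26), A2m (-0.043), Apobec1 (-0.07) and Fn1 (-0.11).

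For Cxcl16 the most alike genes were Slfn4, a schlafen family gene (r = 0.92, rho = 0.78), Rassf1, a tumor suppressor with a Ras association domain (0.90, rho = 0.85), and the membrane protein gene Tmem123 (0.89, rho = 0.79). Without LID replicates 2 and 6, r was 0.60, 0.77 and 0.60. Slfn4 rose by 0.90 (log2, standard error 0.20) and Tmem123 by 0.43 (0.08), while Rassf1 changed by 0.12 (0.09, adjusted p = 0.400 from limma). For Cxcl13 they were Spata6l (r = 0.81, rho = 0.71), the osteoblast transcription factor Sp7 (0.80, rho = 0.52) and the protocadherin Pcdhb12 (0.79, rho = 0.78). Without LID replicates 4 and 5, r was 0.43, 0.33 and 0.71. None of these 3 was higher in LID. Pcdhb12 fell by 0.21 (standard error 0.06, adjusted p = 0.0229), a call that was lost without sham replicate 3 or 4 or LID replicate 3 or 4 (adjusted p 0.0510 to 0.0564). Spata6l differed by -0.12 (0.04, adjusted p = 0.0812) and Sp7 by -0.13 (0.10, adjusted p = 0.462).

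Among the receptors and processing partners of the chemokines, none passed the test as higher in LID with all arrays. Of 9 such genes listed, 5 were measured, and the test called 0 higher and 1 lower, with a median log2 difference of 0.01 against -0.02 over all probesets. Counts in this and each other list stand against 7.66% of all probesets higher and 11.7% lower. Cxcr5, the Cxcl13 receptor, had a mean of 0.13 ± 0.33 (SD, n = 6) in sham and 0.04 ± 0.19 in LID, a fold change of 0.94 (0.76 to 1.16, adjusted p = 0.760 from limma). Cxcr4, the Cxcl12 receptor, to which binding of Cxcl14 has also been described, had a fold change of 1.01 (0.86 to 1.18, adjusted p = 0.975). Adam17, a metalloproteinase that sheds membrane proteins, had 1.10 (0.97 to 1.25, adjusted p = 0.332). The scavenging receptor Ackr3 had 1.33 (1.04 to 1.71, adjusted p = 0.103) and passed only without LID replicate 6 (adjusted p = 0.0272) or with array weights (0.0183). Gpr85, an orphan receptor proposed to bind Cxcl14 in mouse, fell by 0.18 (log2, standard error 0.05, adjusted p = 0.0299). The call was lost with array medians subtracted (adjusted p = 0.0592) and after a further quantile normalization (0.0539). It was also lost without sham replicate 3, 4 or 6 or LID replicate 2 or 3 (adjusted p 0.0537 to 0.0710). Cxcr6, Ackr1, Ackr4 and Adam10 were not analysed here.

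Among the other CXC ligands, 3 of the 10 measured were called higher and 0 lower, with a median log2 difference of 0.09. The 3 were the Cxcr3 ligands, which rose 3.54-fold (Cxcl10), 3.54-fold (Cxcl9) and 5.52-fold (Cxcl11), so that the values of Cxcl13 and Cxcl14 lay within their range and that of Cxcl16 below it. The 7 others were the neutrophil attractants Cxcl1, Cxcl2, Cxcl3 and Cxcl6, the platelet chemokines Pf4 and Ppbp and the stromal chemokine Cxcl12. Their log2 differences ran from -0.09 for Cxcl2 and Cxcl12 to 0.23 for Cxcl1, and their adjusted p was 0.386 or more. Cxcr3 itself had a log2 difference of 0.31 (standard error 0.17, adjusted p = 0.255). Of the other receptors in its list (4 measured, 1 higher, 0 lower), the neutrophil receptor Cxcr2 rose 1.31-fold (1.11 to 1.55, adjusted p = 0.0276). Its call was lost without sham replicate 4 or 5 or LID replicate 2, 3 or 5 (adjusted p 0.0532 to 0.0646), and without moderation of the variances (0.0550).

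**Figure D4:**
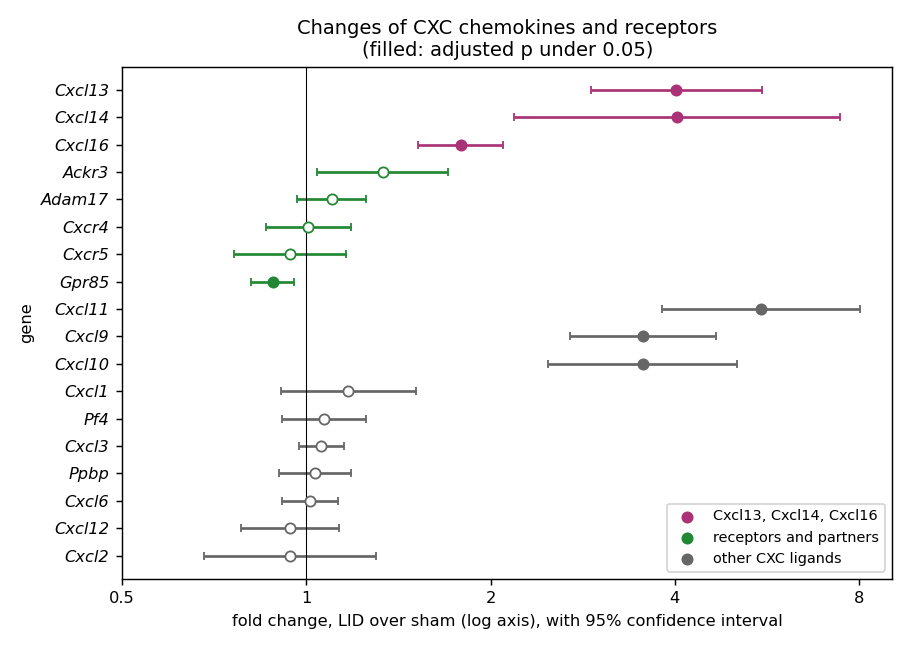
Fold change of LID over sham (horizontal axis, log scale, n = 6 arrays per group) with its 95% confidence interval for the 3 chemokines, their measured receptors and partners, and the other CXC ligands. Filled points passed an adjusted p of 0.05 in limma; the 3 chemokines and Cxcl9, Cxcl10 and Cxcl11 lie to the right, from 1.79-fold to 5.52-fold.

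Genes of pathways known to induce these chemokines moved in part. In lymphoid stroma, lymphotoxin drives Cxcl13 through its receptor and the noncanonical NF-kB subunit Nfkb2, and tumor necrosis factor, which signals mainly through canonical NF-kB, also contributes. Of 7 genes measured in that list 3 rose and 0 fell, with a median log2 difference of 0.14. The TNF receptor Tnfrsf1b rose 1.71-fold (1.42 to 2.05, n = 6 arrays per group), Nfkb2 rose 1.27-fold (1.13 to 1.43) and Tnfrsf1a rose 1.17-fold (1.06 to 1.28). The call of Tnfrsf1a was lost without sham replicate 3 or LID replicate 1 or 2 (adjusted p 0.0503 to 0.0523). The ligands themselves, named after their values were seen, had log2 differences of 0.01 (Lta), 0.14 (Ltb) and -0.01 (Tnf) and did not pass the test. Interferon gamma is known to raise Cxcl16, and of 9 genes of its pathway 7 rose and 0 fell, with a median of 0.52. The largest were the guanylate-binding protein Gbp2 (3.80-fold, 2.98 to 4.83) and the transcription factors Irf8 (2.26-fold, 1.74 to 2.93) and Irf1 (2.17-fold, 1.70 to 2.76), while Ifng, named after its value was seen, had 1.12-fold (0.98 to 1.27, adjusted p = 0.236).

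Markers of the cells that make or follow these chemokines differed in how they moved. All 10 measured macrophage and monocyte markers rose, against 7.66% of all probesets, with a median log2 difference of 1.30, and all 10 also passed without sham replicate 1. They were led by Cybb, which carries the catalytic site of the phagocyte NADPH oxidase (3.38-fold, 2.36 to 4.84), the lysozyme Lyz2 (2.82-fold, 2.22 to 3.58) and Mpeg1, a macrophage protein that forms pores (2.72-fold, 1.94 to 3.81). Scavenger receptor genes were listed because Cxcl16 also takes up oxidized lipoprotein, and the role is not shared by every gene of the list. Of 3 measured, 2 rose, the oxidized lipoprotein receptor Olr1 (2.14-fold, 1.52 to 3.02) and Scarb1 (1.25-fold, 1.14 to 1.38). The third, Scarb2, had 1.12-fold (0.94 to 1.35, adjusted p = 0.420 from limma). The lists were chosen with earlier results of these data known, so these counts are not independent evidence. What part the macrophage markers have in the rise of the chemokines was not tested.

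The measured B cell and T cell markers did not pass the test with all arrays, while some NK and cytotoxic cell markers did. Of 11 B cell genes listed 3 were measured. Of these, Cd79b, Cd72 and Fcer2, 0 passed, with log2 differences from -0.05 to 0.20, and their mean over an array ran from -0.12 to 0.24 in sham and from -0.02 to 0.14 in LID. Of 7 T cell genes 0 passed, with differences from 0.04 to 0.39. Without sham replicate 1, 2 of them did, the co-receptor Cd4 (log2 difference 0.44, adjusted p = 0.0400) and Cd5, a T cell surface receptor (0.28, adjusted p = 0.0320). Both are named after their values were seen. With all arrays their adjusted p was 0.0576 and 0.0554. Of 6 NK and cytotoxic cell genes 3 rose, the activating receptor Klrk1 (3.29-fold, 2.65 to 4.09), Nkg7 (2.24-fold, 1.75 to 2.88) and perforin, Prf1 (1.26-fold, 1.14 to 1.39).

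Stromal genes split. Of 8 markers of lymphoid stroma and follicular dendritic cells, the sources of Cxcl13 in lymphoid follicles, 3 rose and 0 fell, with a median of 0.08. These were the inhibitory IgG receptor Fcgr2b (5.07-fold, 3.72 to 6.92), which macrophages and B cells also carry, and the adhesion molecules Icam1 (1.57-fold, 1.33 to 1.84) and Vcam1 (1.47-fold, 1.24 to 1.73), which inflamed endothelium also carries. Of 8 fibroblast and epithelial markers, cells that make Cxcl14 elsewhere, 0 rose and 1 fell, E-cadherin (Cdh1), by 0.15 (log2, standard error 0.04, adjusted p = 0.0279). That call was lost without sham replicate 3 or 5 or LID replicate 2, 3 or 6 (adjusted p 0.0528 to 0.0675) and when array medians were subtracted (0.0831). Without sham replicate 1 the collagen gene Col1a2 passed (log2 difference 0.36, adjusted p = 0.0277; 0.31 and 0.0580 with all arrays; named after its value was seen). Of 3 endothelial markers 0 passed, with differences from -0.07 to 0.13.

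The listed markers of the resident cells of the ganglion mostly did not pass the test. Of 14 sensory neuron genes 0 rose and 2 fell, with a median log2 difference of -0.01. A share of 2 in 14 lower is near the 11.7% of all probesets that were lower, and nothing is read from it about these neurons. The neurotrophin receptor Ntrk3 fell by 0.33 (standard error 0.10) and Ntrk2 by 0.20 (standard error 0.05), and the Ntrk3 call was lost on leaving out any one array other than sham replicate 6 or LID replicate 5 (adjusted p 0.0526 to 0.0812) and without moderation of the variances (0.0632). The Ntrk2 call was lost without sham replicate 3 (adjusted p = 0.0505). Of 10 probesets for Schwann and satellite glial markers, 0 rose and 2 fell, against 11.7% of all probesets lower, with a median of -0.08. The 2 were the potassium channel Kcnj10, by 0.42 (standard error 0.06), and the glutamate transporter Slc1a3, by 0.48 (standard error 0.08). Gfap, a glial gene that the study lists as upregulated in LID, was not in this list, so the count holds for the listed genes only. The plot of calls in the gene lists sets these counts side by side.

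**Figure D5:**
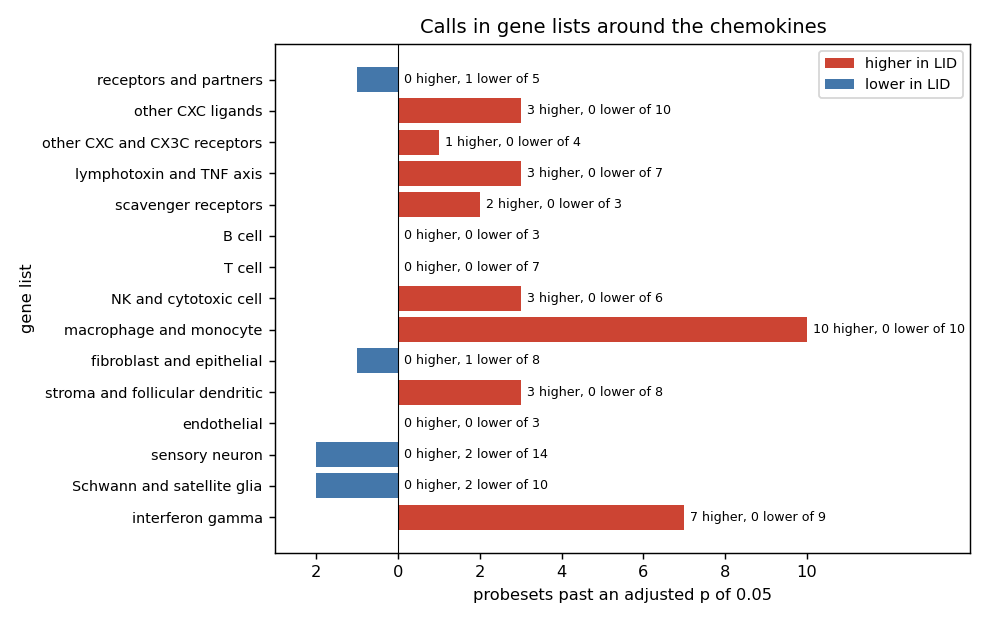
Probesets past an adjusted p of 0.05 in limma (horizontal axis), higher in LID to the right and lower to the left, in 15 gene lists (vertical axis), with the number measured beside each bar. All 10 macrophage and monocyte probesets and 7 of 9 interferon gamma probesets were higher, and 0 of 3 B cell and 0 of 7 T cell probesets were.

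The neighbors of the 3 genes in RefSeq order were also read. Of 18 protein-coding neighbors, 3 on each side of each gene, 3 were measured and 0 passed the test. They were Arrb2 beside Cxcl16 (log2 difference -0.02, standard error 0.06) and Neurog1 (-0.06, standard error 0.12) and Tifab (0.30, standard error 0.12, adjusted p = 0.111 from limma) beside Cxcl14. They were chosen by position. No neighbor of Cxcl13 was among the measured genes.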

How the data were processed

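Per the methods and labels, the authors summarized core probesets of the Affymetrix Rat Exon ST 1.0 array to gene level with RMA16 in GeneSpring 11.5, quantile normalized them and centred each on its median over the 12 arrays (deposited log2 values; annotation build rn4). The base and direction of these values were settled on 221 fold changes listed by the study, at a tolerance of 0.0005. Centring removed the levels, so dim probesets were not left out. RNA came from 1 of 2 kits, and which sample had which was not given in the sources used here. Replicates were separate rats.

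LID was compared with sham in limma 3.58.1 (R 4.3.3), with both directions tested and p-values adjusted by the Benjamini-Hochberg method across the 8260 probesets at 0.05. Exact permutation tests used every assignment of arrays or all 720 pairings (Python 3.11.15, numpy 2.4.6, scipy 1.17.1). The fit was tested on simulated data. Probes were named from the platform annotation, and 7584 of 7603 single-symbol probesets were found in RefSeq by gene ID. All 3 chemokines matched a RefSeq promoter.

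The members and lists were chosen with earlier results of these data known. Named genes were the members, all measured receptors, partners and CXC ligands, the 3 largest called changes of each other list, and the 3 genes most like each member. Alternatives varied moderation, weights, normalization, adjustment, replicate block and arrays. The arrays' number limits the precision.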

Additional observations from a re-analysis of the deposited data

Results flagged for a closer look

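Among 100 groups of 6 values (the sham and the LID values of each named gene), 8 had an array whose gap to its nearest neighbor took up more of the range than Dixon's limit, where chance gives about 1 in 20 groups. For Cxcl16, LID replicate 2 was 1.00 and the other inflamed ganglia lay between 0.23 and 0.50. The same ganglion stood apart in the interferon gamma list, with Gbp2 at 1.51 (others 0.55 to 0.90) and Irf1 at 1.55 (others 0.34 to 0.74). This was not particular to interferon gamma genes. LID replicate 2 also had the highest LID mean of the macrophage list (0.97), the NK and cytotoxic list (0.56) and the other CXC ligands (0.75), among others. It was not the highest in the scavenger receptor, B cell, T cell and sensory neuron lists. Mpeg1 in sham replicate 1 was 0.083 against -1.21 to -0.95 in the other sham ganglia, and A2m in LID replicate 6 was -0.043 against 0.62 to 0.88 in the other inflamed ganglia. Sp7 in LID replicate 4 was -0.62 (others -0.15 to 0.10). In sham replicate 6 the neurotrophin receptors were low, Ntrk2 at -0.080 (others 0.12 to 0.22) and Ntrk3 at -0.26 (others 0.27 to 0.41). Cxcl14 in sham replicate 1 was below that limit, with a gap of 0.559 of the range. The causes were not tested.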

How the results depend on the processing

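Cxcl13 and Cxcl16 passed an adjusted p of 0.05 under all 21 alternatives run, with log2 differences from 1.82 to 2.19 and from 0.74 to 0.89. Cxcl14 passed under 20 of 21, from 1.54 (quantile normalization again) to 2.40 (without sham replicate 1), and not after Holm adjustment (difference 2.01, adjusted p = 1). Holm adjustment left 132 of the 1601 probesets called in either direction (19.4% of all) and 11 of the 38 called listed genes; it is stricter by construction. With the replicate number as a block, the limma fit called 1680 probesets and the 3 chemokines kept their calls (adjusted p 0.000991, 0.0114 and 0.00208 for Cxcl13, Cxcl14 and Cxcl16). The block ended the calls of Tnfrsf1a (adjusted p = 0.0623), Gpr85 (0.0509), Ntrk2 (0.0525) and Pcdhb12 (0.0631). The labels do not say that the numbers pair the samples. Same-numbered arrays correlated from -0.15 to 0.40 and 3 of 12 arrays correlated best with their own number, which does not settle whether they share a pairing or batch. A sign-flip test over the numbered pairs, which cannot go below p = 0.0312 before adjustment, gave the differences of 1.17 between Cxcl13 and Cxcl16 (exact adjusted p = 0.0938) and of 1.17 between Cxcl14 and Cxcl16 (exact adjusted p = 0.141). Leaving out 1 array gave 0.94 to 1.55 for the latter pair. Without both replicate 2 arrays, Cdh1, Gpr85, Ntrk2, Ntrk3 and Tnfrsf1a lost their calls (adjusted p 0.0538 to 0.119). Of 47 other named genes, 27 changed their call under at least 1 alternative. Signal over background is unknown, so a probeset with a difference near 0 may be one with no signal.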
